A study of Mus musculus with 3 samples.

Results

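Elf4, the gene of the transcription factor Mef, and 9 other blood-expressed genes of the ETS family (Elf1, Elf2, Erg, Fli1, Spi1, Ets1, Ets2, Etv6 and Elk3) were followed across 3 Affymetrix arrays of mouse LSK cells. LSK cells are the bone marrow fraction without lineage markers and with Sca-1 and Kit on the surface, which holds the blood stem cells and early progenitors. The genes were chosen by name, with earlier results of these data known. Every probe set that the platform annotation assigns to 1 of these 10 symbols was taken. This gave 25 probe sets for 10 of the 18194 named genes. The groups, with 1 array each, were wild-type cells (WT), cells null for p53 (p53 KO) and cells null for both p53 and Mef (DKO), so the latter pair share the loss of p53. Strain, age, sorting scheme, the number of animals behind an array and the alleles used for the knockouts are not given in the sources used here. No Mef single knockout was analysed here.

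ETS factors share a winged helix-turn-helix DNA-binding domain, the ETS domain, that reads a GGAA core, and differ in the partners and the activating or repressing regions around it. In blood formation they divide labour: Erg, Fli1 and Etv6 are needed to keep stem cells, Spi1 (PU.1) directs myeloid and B cell fate, and Ets1 is most used in lymphocytes. Mef is known as an activator of perforin in killer lymphocytes and as a factor whose loss leaves stem cells more quiescent.

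Values were MAS5 signal intensities on a linear scale, which read the relative amount of a transcript and cannot be set against those of another probe set. A floor of 110.4, the median over all probe sets and arrays, replaced any lower signal before log2 was taken, and probe sets that got to this floor on 1 or more arrays were called measured. Of the 25 probe sets 23 were measured, 16 of them on all 3 arrays, and all 10 genes had at least 1. Each gene was represented by its probe set of highest mean signal. A log2 difference of 1 is 2-fold, and where an array lies under the floor the difference is a minimum, marked "at least". With 1 array a group there was no replicate spread and no test was possible. Between probe sets of one gene, the robust SD of the log2 difference was 0.33 for p53 KO against WT and 0.37 for both comparisons with DKO. That spread does not include variation between animals or sorts. The 3 comparisons share their arrays, so a high or low value on 1 array enters a pair of them.

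Median signal was 98 on WT, 105 on p53 KO and 129 on DKO, at an equal trimmed mean. Kit, a receptor that defines LSK cells, had signals of 4996, 2522 and 4873 in the order WT, p53 KO and DKO, and Sca-1 was not analysed here. Markers of cells that the sort should leave out were also present. Summed over all named markers of a list and in the same order, signals were 103952, 173500 and 71528 for granulocytes (8 of 8 genes reached the floor on each array), 73592, 78058 and 18908 for red cells, and 10883, 36024 and 17230 for monocytes. Sums were 1657, 5804 and 2540 for B cells, 4298, 13045 and 7632 for megakaryocytes, 862, 2077 and 1035 for NK cells and 344, 501 and 482 for T cells. The brightest genes of a list weigh most in its sum, so a sum is compared between arrays and not with another list. Each of these sums was highest on p53 KO. The red cell sum was close to that of WT, and its genes differed in direction. Klf1 (12847 and 9033 on WT and p53 KO), Ermap (19247 and 16391) and Car1 (25815 and 9638) were lower on p53 KO. Alas2 (1787 and 11459), Epb42 (1199 and 6526) and Slc4a1 (12659 and 24942) were higher on p53 KO. Of the 6 T cell markers named, 0 reached the floor on WT, 1 on p53 KO and 2 on DKO, so that sum is mostly of signals under the floor. The LSK markers summed to 19713, 16008 and 33659, highest on DKO. In such bulk samples fewer cells of a type and less RNA per cell cannot be told apart.

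**Figure D1:**
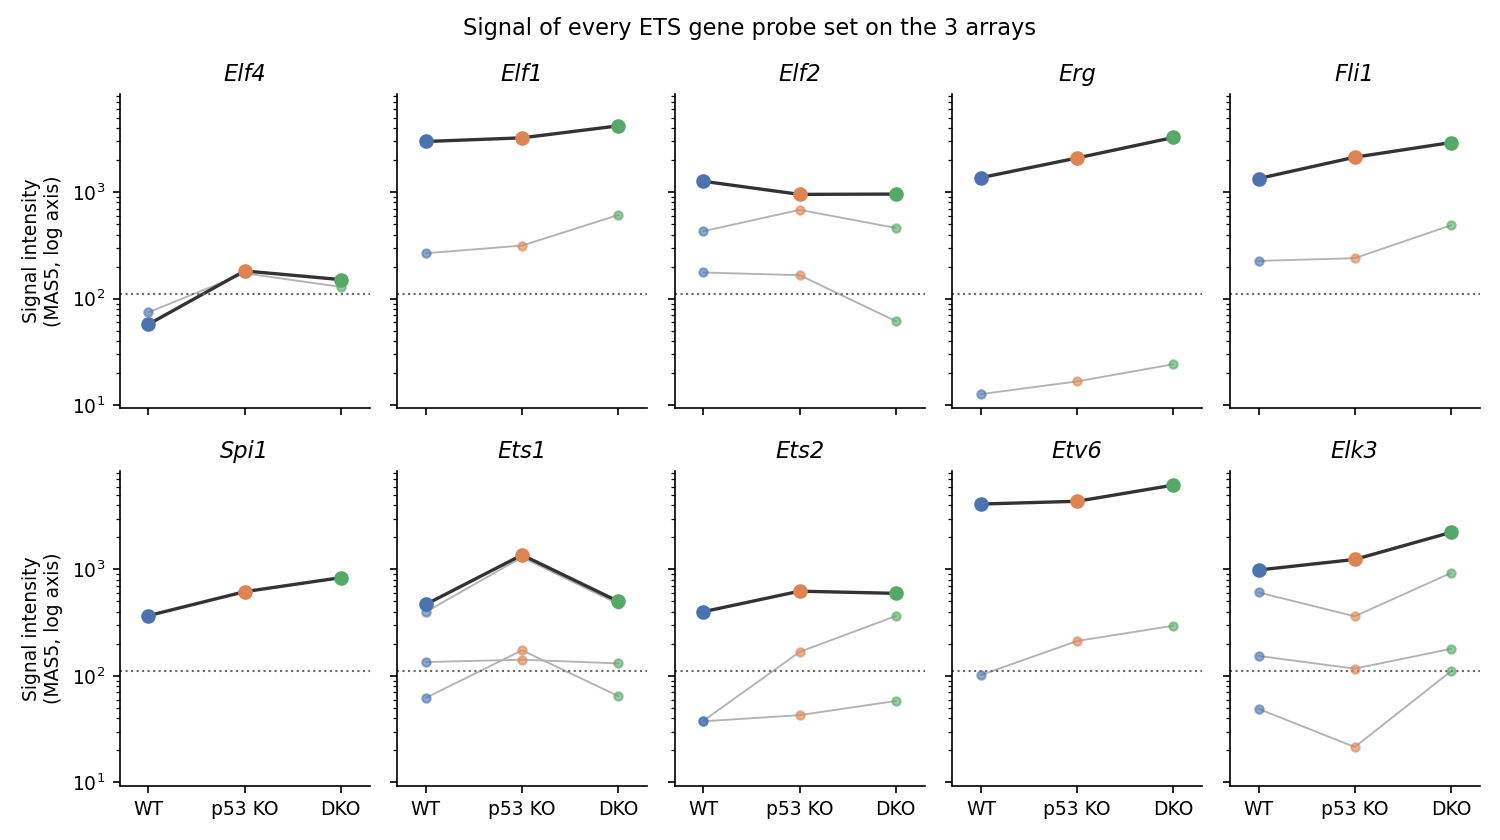
Signal intensity (log axis) of every probe set of the 10 ETS genes by genotype, 1 point per array. Large points and the dark line mark the probe set that represents the gene, pale lines its other probe sets, and the dotted line the floor of 110.4. Elf4 lay near the floor, Erg, Fli1 and Spi1 were lowest on WT and highest on DKO, and Ets1 peaked on p53 KO.

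Elf4 itself was dim on every array. Probe set 1421337_at gave signals of 57.4 on WT, 182 on p53 KO and 151 on DKO, and probe set 1421338_at gave 74.3, 173 and 129. Both were under the floor on WT and above it on both p53-null arrays. Both are annotated to the same expressed sequence tag, so they may not be independent readings. Which Elf4 transcripts each one reads was not analysed here. By the brighter one, p53 KO was at least 0.72 above WT on the log2 scale, DKO at least 0.45 above WT, and DKO 0.27 lower than p53 KO (a log2 difference of -0.27, or 1.20-fold). The other probe set gave at least 0.65, at least 0.23 and -0.42. Without a floor the signals of the brighter probe set stood at 3.17 times WT on p53 KO and 2.63 times WT on DKO. Those of the other probe set stood at 2.32 and 1.74 times WT. These ratios rest on WT signals under the floor. In the deposited signals the array labelled DKO thus held the gene that its label says was inactivated at a higher signal than WT and at a slightly lower one than p53 KO. The sources used here do not say whether these probe sets lie inside the deleted part, so they do not check the DKO label.

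The genes with the most similar course over the 3 arrays, by Euclidean distance of log2 signals centred on each gene's mean, were Entpd1 (0.004), Mtmr14 (0.005), Rnd2 (0.020), Gas2l3 (0.023) and Pag1 (0.024). Entpd1 encodes the ecto-nucleotidase CD39, and its signals were 187 on WT, 309 on p53 KO and 256 on DKO. The measure rests on 3 values, 1 of them a floor for Elf4, and 111 of 12596 genes lay within a distance of 0.1. The nearest ETS gene was Ets2, at 0.14.

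The Elf4 promoter is shown so that the ETS cores before the start of the targeted gene can be seen. The window is the 250 bases before the outermost RefSeq start (GRCm38.p6, chrX:48463133-48463382, minus strand), with each ETS core, GGAA or its reverse complement TTCC, in capitals.

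Elf4: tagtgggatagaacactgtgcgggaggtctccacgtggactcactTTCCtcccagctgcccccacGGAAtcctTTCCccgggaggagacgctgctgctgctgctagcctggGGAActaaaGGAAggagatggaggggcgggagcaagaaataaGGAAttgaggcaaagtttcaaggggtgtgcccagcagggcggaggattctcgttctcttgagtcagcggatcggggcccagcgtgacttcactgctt

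This window held 6 cores, and 8.69% of all 32851 RefSeq windows of that length held as many. A second Elf4 start had 2 cores. Starts of 7 of the 10 genes were matched (12 windows), and Fli1, Spi1 and Ets1 were not. At least 1 core stood in 10 of the 12 windows, against 93.4% of all windows. Median core number was 2 in the member windows and 3 in all windows. The longer ETS motif CCGGAAGT stood in 0 of the 12 member windows and in 2.88% of all windows, and the Spi1-type motif GAGGAAGT in 0 and 2.44%. Both strands were searched, and the longer motifs contain the core. A match is a run of letters and not a site of binding.

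Elf1 and Elf2 are the closest relatives of Elf4. Elf1, an activator of early blood and lymphoid genes, had signals of 2991 on WT, 3236 on p53 KO and 4194 on DKO, and 267, 315 and 609.7 at its other probe set. WT and p53 KO were close together and DKO was the highest, with log2 differences from WT of 0.49 and 1.19 by probe set. Elf2, whose isoforms activate or repress, gave no single direction: its 3 probe sets read 1264, 953 and 959, then 430.2, 682 and 461, then 176, 166 and 61.5. The brightest was highest on WT, the next on p53 KO, and the dimmest was lowest on DKO, with a log2 difference from WT of -0.68 or below. Several of these probe sets are marked as reading more than 1 transcript of a gene, and which isoform each one reads was not analysed here.

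Erg and Fli1, close relatives that maintain stem cells and drive megakaryocytes, were both lowest on WT and highest on DKO. Erg signals were 1368 on WT, 2094 on p53 KO and 3262 on DKO. On the log2 scale p53 KO lay 0.61 above WT, DKO lay 1.25 above WT (2.39-fold), and DKO lay 0.64 above p53 KO. A further Erg probe set was under the floor on every array, at 12.7, 16.7 and 24.2. Fli1 gave 1342, 2128 and 2922, and 226, 239.9 and 488 at its other probe set. Both Fli1 probe sets were over 2-fold higher on DKO than on WT, at 1.12 and 1.11, while for p53 KO against WT they read 0.66 and 0.09. The step to p53 KO was thus carried by 1 of the Fli1 probe sets and the value on DKO by both.

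Spi1 has a single probe set. Its signals were 368 on WT, 618 on p53 KO and 837 on DKO, or 0.75 and 1.18 above WT (2.27-fold on DKO). The monocyte markers named above were highest on p53 KO instead, with all 8 at least 2-fold above WT there and 0 of 8 on DKO. Their part in the Spi1 values was not tested.

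Ets1 and Ets2, which bind with AP-1 and answer to MAP kinase signals, parted. Ets1 was high on the p53 KO array alone, with signals of 470.1 on WT, 1368 on p53 KO and 501 on DKO, and 399.8, 1302 and 474 at a further probe set. WT and DKO differed by 0.09 and 0.24 on the log2 scale at these probe sets, and p53 KO lay 1.54 and 1.70 above WT. A dimmer probe set was also highest on p53 KO at 62.3, 174 and 64.7, while another stayed at 135, 142 and 131. Ets2 gave 401, 625 and 596, with both p53-null arrays above WT and close to each other. Its other measured probe set, which can cross-hybridise by its suffix, read 38, 168 and 365, at least 1.73 above WT on DKO. The remaining Ets2 probe set was under the floor throughout.

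Etv6, a repressor that adult stem cells require, had signals of 4113 on WT, 4366 on p53 KO and 6194 on DKO, and 102, 213 and 296 at its other probe set. DKO was the highest at both, by 0.59 and at least 1.42 over WT. Elk3, a ternary complex factor that represses serum response genes until it is phosphorylated, had signals of 988, 1241 and 2228. Its other probe sets read 608, 363 and 925, then 154, 117 and 179.7, and 49, 21.5 and 110.4, the last of these on DKO lying exactly at the floor. DKO was the highest array at all 4 Elk3 probe sets. WT was above p53 KO at 3 of the 4, the brightest being the exception, so Elk3 has no agreed direction for p53 KO against WT.

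Of the genes over 2-fold higher on DKO than on WT, Erg and Elk3 had RefSeq starts to set beside their values. The 250 bases before the outermost start of each are shown to compare with Elf4, with ETS cores in capitals (GRCm38.p6, Erg at chr16:95586594-95586843 and Elk3 at chr10:93311160-93311409, both on the minus strand).

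Erg: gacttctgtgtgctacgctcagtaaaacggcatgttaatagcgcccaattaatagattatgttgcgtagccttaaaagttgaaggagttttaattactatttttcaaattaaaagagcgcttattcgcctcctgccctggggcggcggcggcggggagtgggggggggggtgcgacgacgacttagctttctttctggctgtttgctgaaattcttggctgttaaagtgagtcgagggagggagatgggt

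Elk3: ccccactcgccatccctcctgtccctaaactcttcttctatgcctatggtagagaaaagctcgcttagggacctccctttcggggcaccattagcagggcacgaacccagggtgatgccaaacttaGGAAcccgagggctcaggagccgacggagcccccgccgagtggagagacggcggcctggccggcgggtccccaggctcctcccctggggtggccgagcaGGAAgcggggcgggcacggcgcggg

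The Erg window held no core at this start, and its other starts held 4 and 2. Elk3 had 2, the nearer one 25 bases before the start, and 76.8% of all windows held as many. Which start was used in these cells was not analysed here.

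Loss of p53 was examined by comparing p53 KO with WT. Most of the 10 genes read higher on p53 KO. Ets1 had the largest measured difference at 2.91-fold (1.54 on the log2 scale), followed by Spi1 at 0.75, Fli1 at 0.66, Ets2 at 0.64 and Erg at 0.61. Elf4 was at least 0.72 higher, a minimum that leaves its true size unknown. Elk3 was at 0.33 (-0.20 with the mean over its probe sets), Elf1 at 0.11 and Etv6 at 0.09 (-0.02 with arrays scaled to a common median). Elf2 alone was lower at -0.41, and read 0.06 with the mean over its probe sets. At least 2-fold higher was 1 of 10 genes, beside 6.51% of the 12597 genes measured, and at least 2-fold lower were 0 of 10, beside 3.19%. The median of the 10 was 0.63 and that of all genes 0.00. With the mean over its probe sets Ets1 came to 0.99, just under 2-fold. With the floor at the 25th percentile or with a pseudocount, Elf4 joined Ets1 over 2-fold, at 1.66 and 1.26.

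Most markers of B cells and NK cells were high on the same array as Ets1. Of 7 B cell markers measured, 6 were at least 2-fold higher on p53 KO than on WT, with a list median of 2.22, and 3 of 5 NK cell markers were. Ccl5, a chemokine of NK and T cells, read 171, 610.0 and 30.2 on WT, p53 KO and DKO. Gzmb, also on the NK cell list, was lowest on p53 KO at 300.3, 220.0 and 358. Of the T cell markers, Cd3e and Cd3g, subunits of the T cell receptor complex, were under the floor on every array. Cd3d, which encodes another subunit, peaked on p53 KO at 50.7, 217 and 20.4 (at least 0.98 above WT). The other measured T cell markers, Cd5 (101, 101 and 185) and Themis (62, 49.3 and 121), reached the floor on DKO alone. For p53 KO against WT the T cell list had a median of 0.00. Lists of other cells were also high on p53 KO. At least 2-fold over WT were 8 of 8 monocyte, 6 of 7 megakaryocyte and 5 of 8 granulocyte markers. Of LSK and endothelial markers 0 of 6 each were. The part of any of these cells in the Ets1 value was not tested.

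Loss of p53 together with Mef was examined by comparing DKO with WT. The stem cell factors Erg (1.25) and Fli1 (1.12), the myeloid factor Spi1 (1.18) and the ternary complex factor Elk3 (1.17) were each more than 2-fold higher on DKO. Etv6 (0.59), Ets2 (0.57) and Elf1 (0.49) were higher by less. Elf4 was at least 0.45 higher, a minimum that does not place it below 2-fold. Ets1 was nearly equal at 0.09, and Elf2 was lower at -0.40. At least 2-fold higher were 4 of 10 genes, beside 5.22% of all genes measured, and 0 of 10 were at least 2-fold lower, beside 3.10%. The median of the 10 was 0.58 and that of all genes 0.07. By probe set, 8 of 23 were at least 2-fold higher and 0 lower, beside 4.90% and 2.78% of the 21841 measured probe sets with 1 gene. Several of the 23 read the same gene.

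These calls depended on how the arrays were scaled. Brought to a common median signal, the DKO array read lower throughout, the median of all genes was -0.26 and none of the 10 genes (0) reached 2-fold, with Erg at 0.86, Spi1 at 0.79, Elk3 at 0.78 and Fli1 at 0.73. The median of the 10 was then 0.21, or 0.47 above that of all genes, beside 0.52 in the reported setting. Ets1 turned to -0.30 there, and to -0.02 with quantile normalization. Averaging all probe sets of a gene brought Elk3 to 0.50, Ets2 to 1.15 and Etv6 to 1.01, and a floor at the 75th percentile brought Spi1 to 0.90. Elf4 passed 2-fold with the floor at the 25th percentile (1.40) and with a pseudocount (1.03), and the count was then 5 in each. The share of all genes past 2-fold under these settings is not given here. On floored signals Elf4 read 0.25 with quantile normalization, 0.24 with cyclic loess and 0.23 with a common median. Its dimmer probe set read 0.00, 0.02 and 0.00 in the same order, so its difference from WT did not hold under these scalings.

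**Figure D2:**
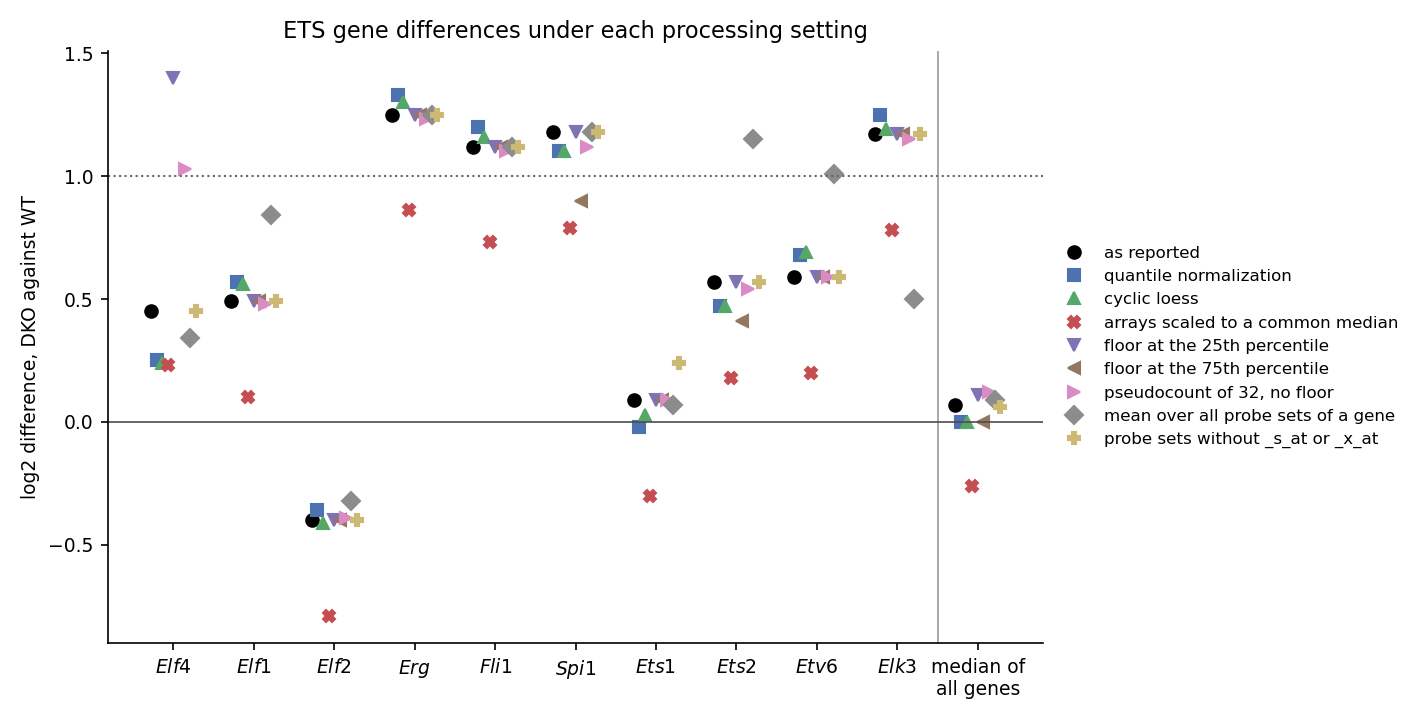
Log2 difference of each ETS gene for DKO against WT under the reported setting and 8 alternatives, with the median of all genes at the right. The dotted line marks 2-fold. Erg, Fli1, Spi1 and Elk3 lie above it in most settings and below it when arrays are scaled to a common median, where the median of all genes is also lower, at -0.26.

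Most LSK markers, but not Kit, read higher on DKO than on WT. Cd34 (2230 on WT, 6633 on DKO) and the stem cell homeobox gene Meis1 (2169 and 4505) were the 2 of 6 LSK markers at least 2-fold higher, and the list median was 0.87. Kit was at -0.04. Mecom was at 0.31 and had its highest signal on p53 KO (958 on WT, 1469 on p53 KO and 1186 on DKO). Red cell markers were lower, 4 of 6 by at least 2-fold, with a median of -1.86. Erg, Fli1 and Elk3 are also expressed in endothelium, whose list summed to 1310 on WT, 1573 on p53 KO and 1951 on DKO, with Cdh5 and Tie1 under the floor on every array and 1 of 6 measured genes (Pecam1) at least 2-fold higher on DKO than on WT. The part of these cells in the ETS values was not tested.

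What loss of Mef added on the p53-null background was examined by comparing DKO with p53 KO. The genes that read highest on DKO were Elk3 (0.84), Erg (0.64), Etv6 (0.50), Fli1 (0.46), Spi1 (0.44) and Elf1 (0.37), each less than 2-fold by its representing probe set. Ets1 was 2.73-fold lower (-1.45), and Elf4 was at -0.27 (-0.56 with cyclic loess). Ets2 was at -0.07 (0.53 with the mean over its probe sets) and Elf2 at 0.01. At least 2-fold higher were 0 of 10 genes, beside 4.10% of all genes measured, and 1 of 10 was at least 2-fold lower, beside 5.93%. Medians were 0.41 for the 10 and 0.11 for all genes, and 0.12 and -0.13 with arrays scaled to a common median. By signal Elk3 was higher on DKO at all 4 of its probe sets, one of them by 1.35. The dimmest only came to the floor on DKO, so its floored difference was 0.00. A Fli1 probe set reached 1.03. With the mean over its probe sets Ets1 came to -0.92, which ended its call. B cell markers were lower on DKO than on p53 KO too, 5 of 7 by at least 2-fold (median -1.10). So were markers of granulocytes (6 of 8, median -2.04), red cells (5 of 6, -2.33) and monocytes (6 of 8, -1.13). Of LSK markers 0 of 6 were lower and 3 were higher by at least 2-fold (median 0.99). The part of any of these cells in the Ets1 value was not tested.

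**Figure D3:**
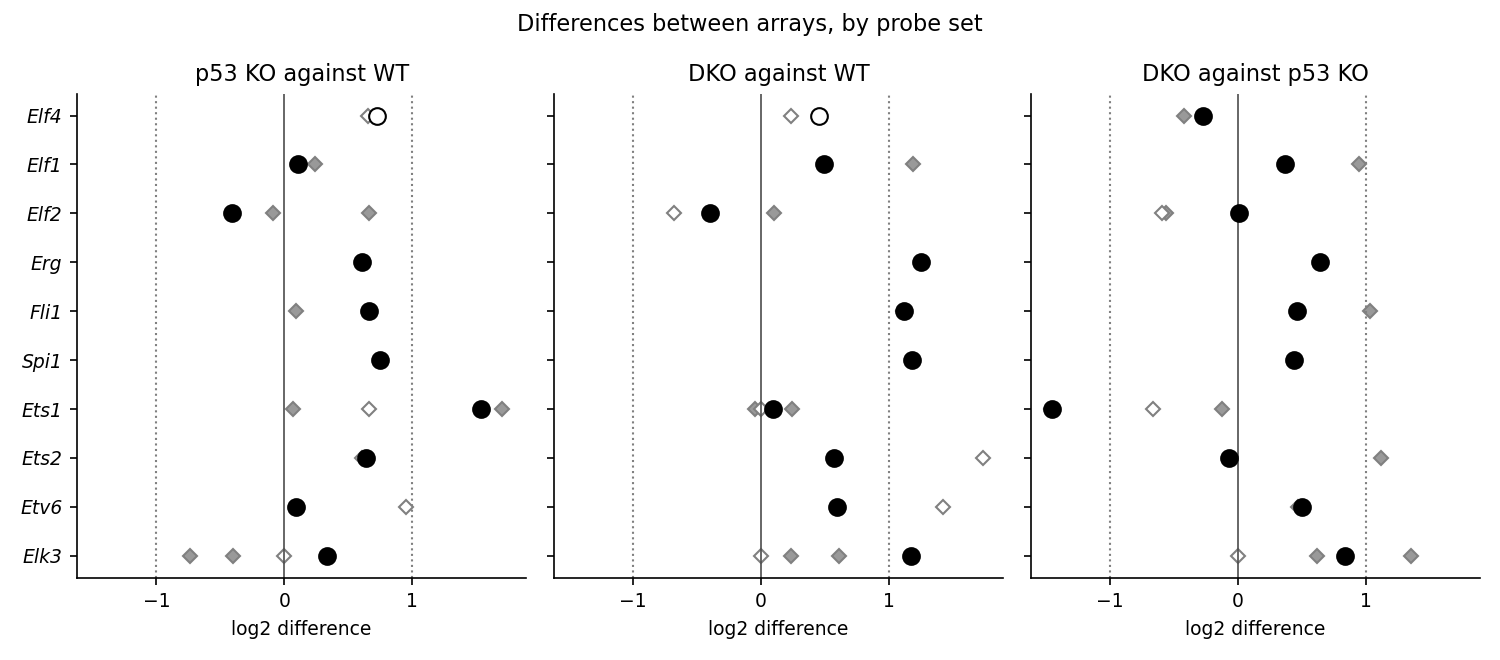
Log2 difference of every measured ETS probe set in the 3 comparisons. Circles are the probe sets that represent a gene, diamonds its other probe sets, open symbols have an array under the floor, and dotted lines mark 2-fold. Probe sets of Ets1 spread from 0.07 to 1.70 for p53 KO against WT, and those of Elk3 from -0.74 to 0.33.

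Agreement between probe sets of a gene was uneven. Of the 8 genes with several measured probe sets, all pointed up in 6 for p53 KO against WT, with both signs in Elf2 and Elk3. For DKO against WT all pointed up in 5, with both signs in Elf2 and Ets1. For DKO against p53 KO all pointed up in 3 and down in 2, with both signs in Elf2 and Ets2. WT was the lowest array for 9 of the 10 genes by signal, and this was so for 36.2% of all genes measured. DKO was the highest for 6 of 10, against 42.2%. These shares describe 3 arrays, and the genes were picked with such values known.

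**Figure D4:**
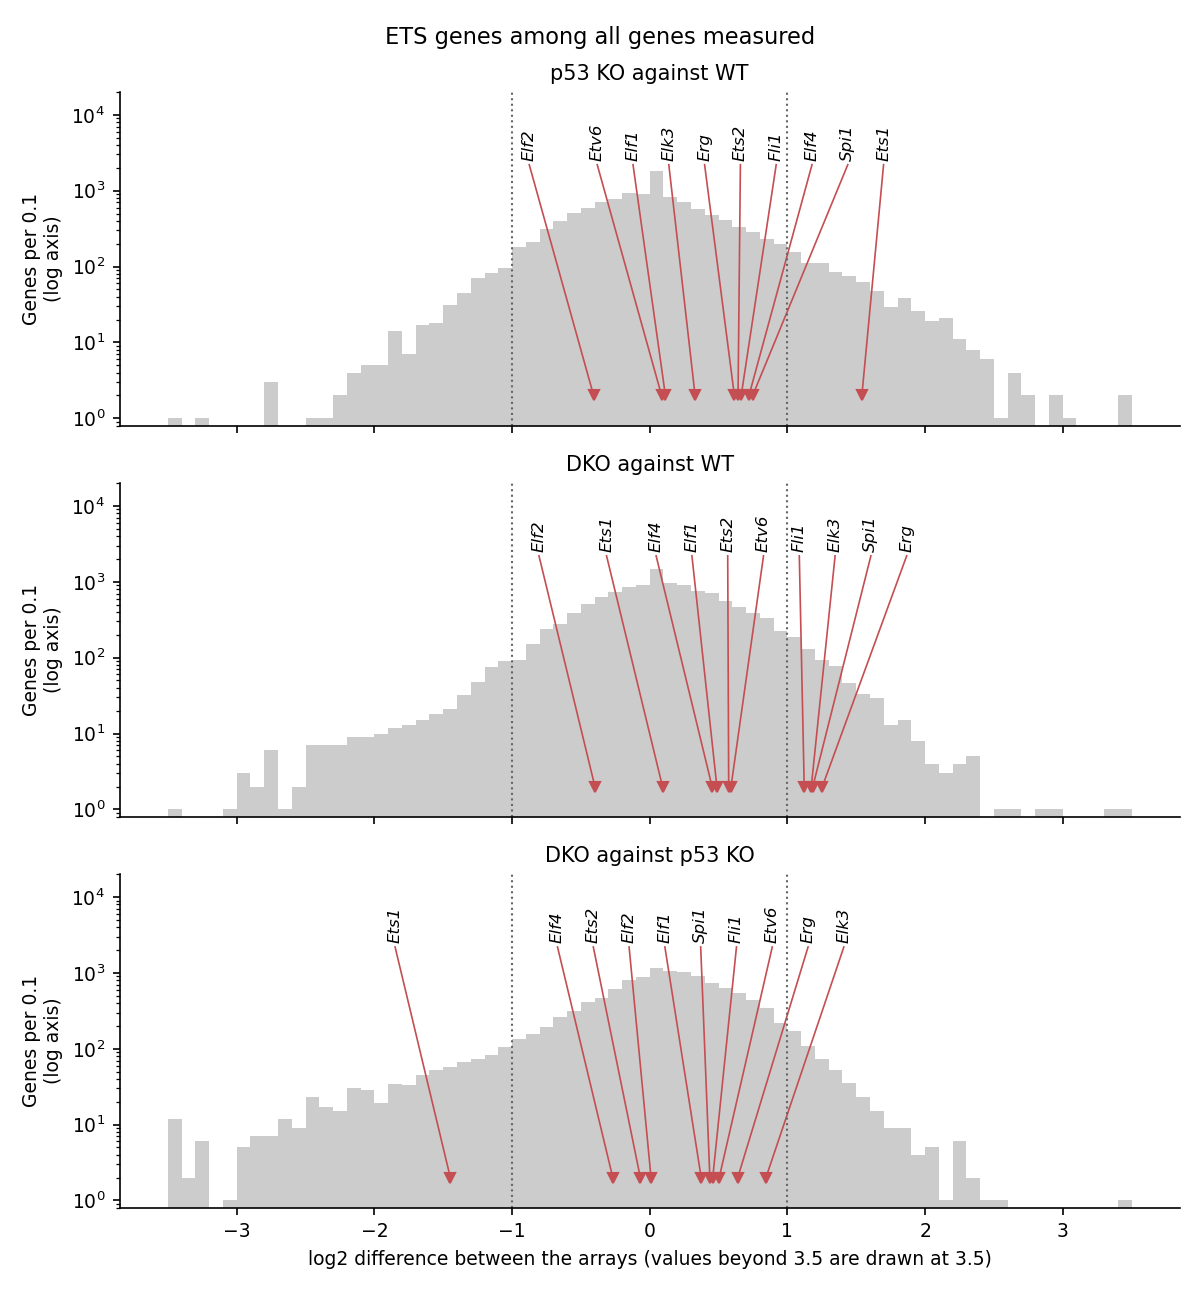
Distribution of log2 differences over the 12597 genes measured (grey, number of genes per 0.1, log axis) with the 10 ETS genes marked, for each comparison. Dotted lines mark 2-fold. In the middle panel Erg, Spi1, Elk3 and Fli1 lie between 1.12 and 1.25, in the upper slope of the distribution.

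The rest of the family had medians nearer to those of all genes. Of 16 other ETS genes on a fixed list 14 were named by probe sets of their own and 9 were measured. Relative to WT the median was -0.02 on p53 KO and 0.15 on DKO, and between the p53-null arrays it was 0.06 (DKO over p53 KO). Spib, the B cell and plasmacytoid relative of Spi1, peaked on p53 KO as Ets1 did, with signals of 283 on WT, 1043 on p53 KO and 384 on DKO. It was the 1 gene at least 2-fold higher on p53 KO than on WT (1.88), and it was lower on DKO than on p53 KO (-1.44). Etv2, which sets up blood and vessel precursors in the embryo, read 228, 123 and 268, or 1.12 higher on DKO than on p53 KO. Etv5 was higher on DKO than on WT by 0.76, from 172 to 291, and 0 of the 9 were at least 2-fold higher in that comparison. Gabpa, the ETS factor of respiratory chain genes, gave 3389, 3273 and 2683, and Elk4, the closest relative of Elk3, gave 4831, 5143 and 5345. These last 2 broadly expressed genes stayed within 0.34 of WT.

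Known targets of the factors gave a mixed reading. Of 6 Elf4 targets 3 were measured, since perforin (Prf1), Csf2 and Il3 were under the floor on every array. The quiescence factors Klf2 (208, 459 and 288 on WT, p53 KO and DKO) and Klf4 (542, 1626 and 686) were over 2-fold higher on p53 KO than on WT, at 1.14 and 1.58. On DKO they stood 0.47 and 0.34 over WT, and Klf4 was -1.24 against p53 KO. Klf4 also belongs to monocytes, whose markers were highest on p53 KO, and their part in its value was not tested. Mdm2, which encodes the ubiquitin ligase of p53, gave 876, 1027 and 692. The machinery that degrades Mef in the cell cycle had a median of 0.04, -0.02 and 0.03 in the 3 comparisons, with 0 of 6 genes past 2-fold in any of them. Its most different gene was cyclin A2 (Ccna2), at 4836, 7026 and 3595.

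Spi1 targets did not follow the Spi1 signal from p53 KO to DKO. Of 10 measured, 3 were at least 2-fold higher on p53 KO than on WT (median 0.88), namely Il7r (2.05), the oxidase subunit Cybb (1.86) and the macrophage growth factor receptor Csf1r (1.70). On DKO 1 of 10 was over 2-fold above WT (median 0.11), and against p53 KO 3 were at least 2-fold lower and 1, Flt3 at 1.66, higher (median -0.58). Cybb went from 13651 on p53 KO to 2241 on DKO. Many of these targets are also myeloid markers, and the part of myeloid cells in their values was not tested. Erg and Fli1 targets had medians of 0.33, 0.67 and 0.26 over 7 measured genes, with the platelet genes Pf4 (1.44) and Gp9 (1.03) past 2-fold for p53 KO against WT and none (0) on DKO, where Itga2b stood 0.96 and the receptor Tek 0.89 over WT. Pf4, Gp9 and Itga2b are megakaryocyte markers as well, and 6 of 7 such markers measured were at least 2-fold higher on p53 KO than on WT. Of 5 targets of Ets1 and Ets2 only the protease Mmp9 was measured, at 2933, 10173 and 1776, and it is a granulocyte marker as well.

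Targets of ternary complex factors, the group to which Elk3 belongs, had signals highest on DKO for 4 of 6 measured genes. Fos read 1384 on WT, 5890 on p53 KO and 14202 on DKO, Ier2 read 704, 1458 and 2489, and Junb 139, 185 and 324. Egr1 stood apart on DKO alone, at 925, 860.4 and 2830. The survival gene Mcl1 was highest on p53 KO (10483, 15762 and 13293), and Egr3 was highest on WT (167, 44.6 and 127). Of the 6, 4 were at least 2-fold above WT on DKO (median 1.41), 2 on p53 KO (0.50), and 2 were higher on DKO than on p53 KO (0.79), Egr1 by 1.72 and Fos by 1.27. Srf, the partner that ternary complex factors bind, was at 1041, 808 and 901.

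**Figure D5:**
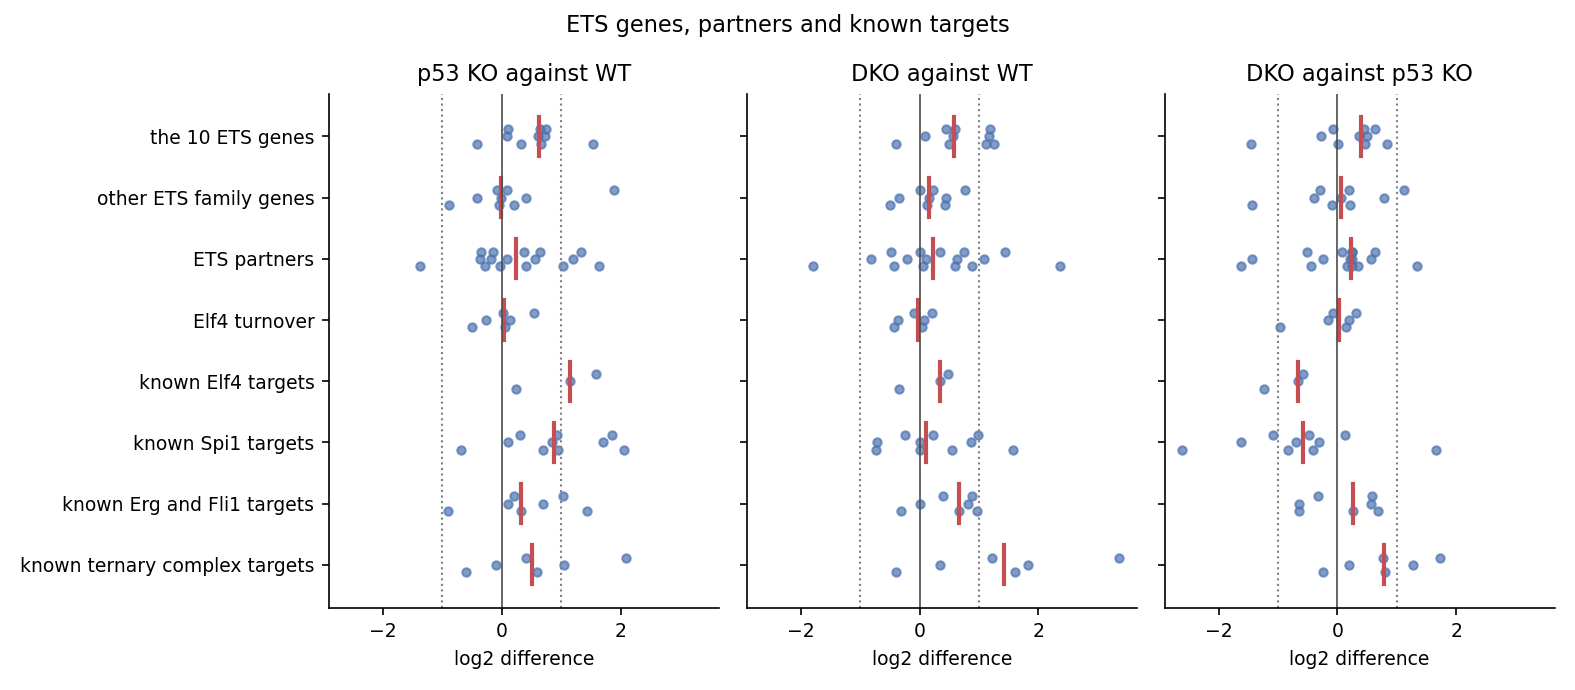
Log2 difference of each measured gene in the 10 ETS genes, the rest of the family, their partners and known targets, for each comparison. Red bars are list medians and dotted lines mark 2-fold. Ternary complex targets have the highest median on DKO against WT, 1.41, and Spi1 targets run from a median of 0.88 on p53 KO against WT to -0.58 on DKO against p53 KO.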

How the data were processed

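Affymetrix signals of 3 arrays (1 each of WT, p53 KO and DKO LSK cells) were used for 45101 probe sets. The deposited signal intensities were made by the authors with GCOS and MAS5, per the submitters' processing notes. From the values, the 2% trimmed mean was 500.0 on each array. Symbols came from the platform annotation, looked up through the Entrez ID for 34754 of 34958 single-gene probe sets. A further 932 had several symbols and 9211 none.

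Signals were floored at 110.4, and log2 differences were computed in Python 3.11.15 (pandas 2.3.3). Cyclic loess used limma 3.58.1 with 3 iterations. A gene was called at 2-fold, and no p-value was computed because each group had 1 array. The calling code was tested on simulated signals with known fold changes. These changes were larger than 2-fold, in genes well above the floor, with noise smaller than the spread between probe sets. That check does not cover calls near 2-fold or signals near the floor. Promoter windows came from RefSeq (GRCm38.p6).

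The members, the 17 other gene lists and the tests were chosen with earlier results of these data known. The text names all 10 members, up to 4 genes of the largest difference in a list and comparison, further genes of the lists chosen after their values were seen (Cd3d, Cd3e, Cd3g, Klf1, Ermap, Car1, Cd34, Meis1, Srf, Gabpa, Elk4, Prf1, Csf2, Il3, Ccl5, Cdh5, Tie1, Pecam1), and the 5 genes nearest to Elf4. Alternatives were quantile normalization, cyclic loess, a common median, floors at the 25th and 75th percentile, a pseudocount of 32, the mean of all probe sets, probe sets without an _s_at or _x_at suffix, and thresholds of 1.5-fold and 3-fold. The array number limits the precision of every value.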

Additional observations from a re-analysis of the deposited data

How the results depend on the processing

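Each result was recomputed under 8 alternatives (10 for counts of genes past a fold). A log2 difference or a median counted as moved when it shifted by more than the robust SD between probe sets. That rule was not used for counts of genes. Shares over all genes are given at 2-fold in the reported setting alone. Counts under other settings or thresholds therefore have no share beside them and are not read against all genes. The medians of the 10 ETS genes stayed above 0 in all 3 comparisons under all 8, and no called difference changed sign. Moved were 23 of 237 values for single genes and 47 of 378 for single probe sets. For p53 KO against WT the count of genes over 2-fold, 1 as reported, was 2 with the floor at the 25th percentile or a pseudocount of 32, and 0 with the mean over all probe sets. It was 6 at 1.5-fold and 0 at 3-fold. For DKO against WT the count of 4 became 0 with arrays scaled to a common median and 0 at 3-fold. It was 3 with the floor at the 75th percentile. With the floor at the 25th percentile, a pseudocount of 32, the mean over all probe sets or the 1.5-fold threshold it was 5. The median of the 10 genes became 0.21 with scaling to a common median, which lowers the DKO array as a whole. For DKO against p53 KO the higher count of 0 became 2 at 1.5-fold, and the lower count of 1 became 0 with the mean over all probe sets and 0 at 3-fold. With the floor at the 75th percentile Elf4 was not measured and 9 genes remained. No replicate could be left out, and no paired analysis was possible because each genotype had 1 array. Elf4 lay near the floor, so its differences from WT are bounds set by that choice, and they also depended on the scaling of the arrays.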

Other observations

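Transcription factors and cofactors that work with ETS factors were all measured (16 of 16), with a median of 0.23 over WT on p53 KO, 0.23 over WT on DKO, and 0.22 for DKO over p53 KO. The interferon regulatory factors that pair with Spi1 and Spib parted. Irf4, a factor of lymphocytes, had signals of 28.3 on WT, 341 on p53 KO and 7.04 on DKO, with the peak on p53 KO. Irf8, which sets monocyte and dendritic fate, read 1798, 4541 and 3816 and was over 2-fold above WT on both p53-null arrays (1.34 and 1.09). Cebpa, the myeloid factor, was at 96.5, 252 and 297, at least 1.19 and 1.43 above WT.

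Gata1, which opposes Spi1 and drives red cell fate, read 4923, 3855 and 1422, or -1.79 for DKO against WT. Red cell markers were also lowest on DKO, and their part in the Gata1 value was not tested. Jun, an AP-1 partner of Ets1 and Ets2, read 180.0, 369 and 930.0, 1.03 and 2.37 above WT. Ldb1, a bridging factor of the stem cell complex with Lmo2 and Tal1, was lower on p53 KO than on WT (1547 and 598, -1.37) and at 879 on DKO. Gata2, a stem cell factor, was at 1590, 1297 and 2024, or 0.64 for DKO against p53 KO.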
